A study of Homo sapiens with 10 samples.

Results

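The genes described here are 9 genes that control the release of paused RNA polymerase II: HEXIM1 and LARP7 of the 7SK particle, CDK9, CCNT1 and CCNT2 of the kinase P-TEFb, NELFA, NELFB and NELFE of the complex NELF, and SUPT5H of the complex DSIF. They were chosen by name for their role, and all 9 were among the 20327 genes listed for every library. RNA was sequenced from hTERT RPE-1, a wild-type human cell line of retinal pigment epithelium origin immortalised with telomerase. All cells had been starved for 48 h in 0.1% serum before treatment. One experiment compared 3 libraries of cells given merbarone at 200 µM for 30 min with 3 of cells given the vehicle DMSO for 30 min, and the other compared 2 libraries of cells given merbarone at 200 µM for 2 h (120 min) with 2 of untreated cells. Merbarone is a catalytic inhibitor of DNA topoisomerase II, and the title of the study concerns control of promoter-proximal pausing by DNA supercoiling. The control of the 2 h experiment had received no vehicle, and a single cell line was used throughout.

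RNA polymerase II often stops shortly after it starts a gene, held there by NELF and DSIF. P-TEFb, a pair of the kinase CDK9 with cyclin T1 or cyclin T2, phosphorylates NELF, DSIF and the polymerase, after which the polymerase moves into the gene. Much of the cell's P-TEFb is kept inactive in a particle built on 7SK RNA, in which LARP7 and the methyltransferase MEPCE protect the RNA and HEXIM1 or HEXIM2 blocks the kinase. Compounds that free P-TEFb from this particle are known to raise HEXIM1 transcripts, which is why HEXIM1 RNA is used as a marker of that release.

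The libraries held 26633780 to 38225538 reads in the 30 min experiment and 11956652 to 13691014 in the 2 h experiment, and the 9 genes had between 268 reads (NELFA, an untreated library) and 4770 reads (HEXIM1, a DMSO library) each. FOS, an immediate-early gene, went from 0.992 ± 0.595 RPKM (SD, n = 3) with DMSO to 49.9 ± 11.6 (n = 3) after 30 min of merbarone, and from 0.720 ± 0.281 (n = 2) to 6.09 ± 1.30 (n = 2) in the 2 h experiment. Of 12 genes that mark pigment epithelium, 3 (BEST1, PMEL and OTX2) averaged 1 RPKM or more, while DCT was listed at 0 in all 10 libraries and RPE65 did not exceed 0.0656 RPKM. The summed level of 4 neural retina genes was 0.378 to 0.391 RPKM in untreated cells and 1.18 to 1.67 after 2 h of merbarone, which came from NRL, since RCVRN and CRX were listed at 0 in all 10 libraries. Labels do not say whether replicates were separate cultures, so the tests measure the spread between these libraries, which may be technical.

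The deposited unit, RPKM, is reads per kilobase of gene, scaled to the reads of the library. Here the kilobases were those of the whole gene with its introns for most genes, so levels of different genes are compared below per kilobase of exon instead. On that scale, in untreated cells, HEXIM1 averaged 31.0 ± 2.32 (SD, n = 2) and NELFB 29.7 ± 1.57. NELFE followed at 21.6 ± 2.88, CDK9 at 18.4 ± 1.19, SUPT5H at 11.6 ± 0.610 and CCNT1 at 6.82 ± 0.784. LARP7 at 5.23 ± 0.561, NELFA at 4.26 ± 0.248 and CCNT2 at 3.72 ± 0.696 were the lowest. HEXIM1 and NELFB could not be ordered on this scale, since their libraries overlapped in all 4 groups, and neither could NELFA and CCNT2. For HEXIM1 the length implied by the RPKM values was 4787 bp, against 3625 bp of exon. Per kilobase of that implied length HEXIM1 averaged 23.5 ± 1.76 (SD, n = 2) in untreated cells. Its place in the order therefore depends on the length used. LARP7 did not overlap its lower neighbour in either group of the 2 h experiment, but overlapped NELFA with DMSO and CCNT2 after 30 min of merbarone. Per kilobase of exon, the kinase CDK9 exceeded both of its cyclins in every group. The places of other genes depend on the length as well. In RPKM, untreated cells averaged 10.8 for CDK9, 8.15 for NELFE and 4.11 for NELFB, the reverse of their order per kilobase of exon. LARP7 averaged 2.05 RPKM there, above CCNT1 at 1.77. Before division by a length, CDK9 had 705 and 693 reads in untreated cells and CCNT1 724 and 552.

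The genes lie apart from each other in the genome (positions are GRCh37, from an annotation and not from the deposited tables). CDK9 is on chromosome 9 at 130547958 to 130553071 and NELFB on the same chromosome at 140149779 to 140167994, both on the plus strand. LARP7 is on chromosome 4 at 113558233 to 113578852 (plus strand), and NELFA on the same chromosome at 1984444 to 2043630 (minus strand). CCNT2 is on chromosome 2 at 135675805 to 135716912 (plus strand), with the antisense RNA gene CCNT2-AS1 overlapping it. NELFE is on chromosome 6 at 31919864 to 31926815 (minus strand) and SUPT5H on chromosome 19 at 39926796 to 39967310 (plus strand). None of the 9 overlaps another gene of the tables.

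The first 6 places of the order per kilobase of exon were the same in the DMSO, 30 min merbarone and 2 h merbarone libraries. After 2 h of merbarone, HEXIM1 averaged 25.5 ± 2.24 (SD, n = 2), NELFB 24.1 ± 0.936, NELFE 21.2 ± 2.33 and CDK9 20.9 ± 1.23 on the scale per kilobase of exon. The libraries of NELFE and CDK9 overlapped in that group and in no other. CCNT1 stood at 10.2 ± 0.400 beside SUPT5H at 12.4 ± 0.331. Per kilobase of its implied length, HEXIM1 averaged 19.3 ± 1.70 in the same group.

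**Figure D1:**
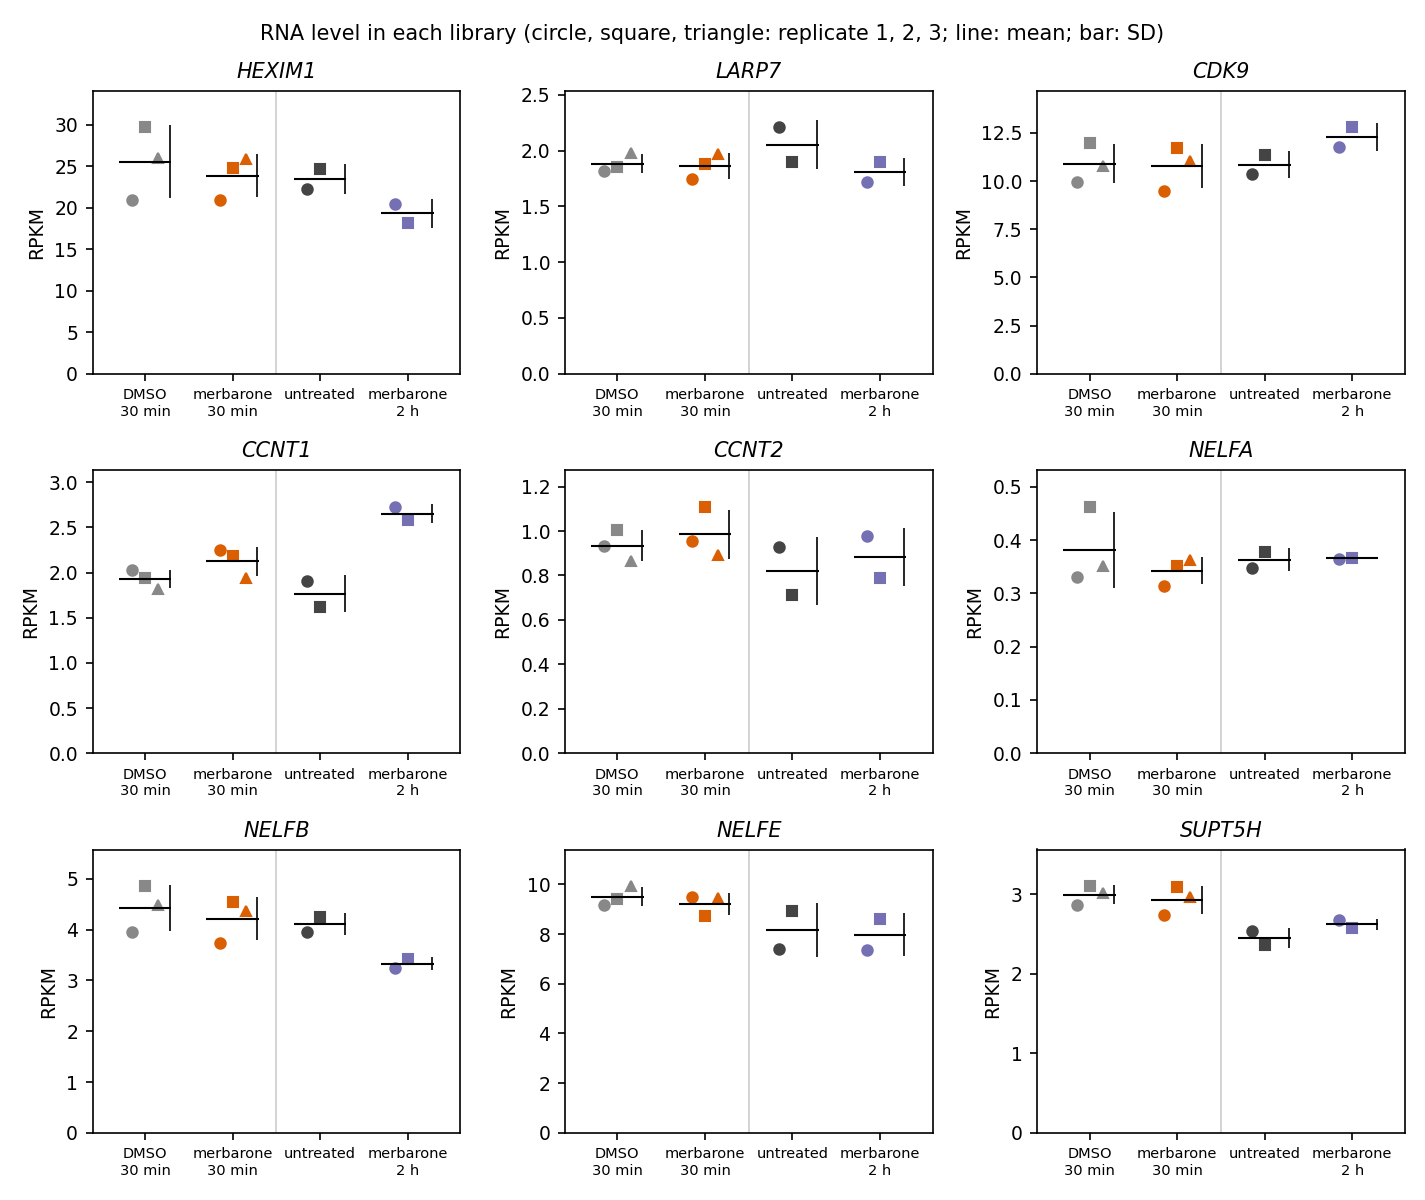
RNA level in RPKM (vertical axes, each starting at 0) of the 9 genes in each of the 10 libraries, by group on the horizontal axis; points are libraries, horizontal lines group means and vertical bars the SD. CCNT1 in both 2 h merbarone libraries (2.73 and 2.58) lies above both untreated libraries, and HEXIM1 and NELFB in the same libraries lie below them.

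HEXIM1 and CCNT1, whose levels the results turn on, are shown here by the 250 bases before their transcription start, from RefSeq on GRCh38.p14, so that the control regions of the inhibitor and of the cyclin can be compared. All 9 genes were matched in the RefSeq promoter table. Capitals mark every match to 7 motifs searched on both strands. They are the TATA box with the letters TATAAA, the NF-Y motif with CCAAT, the GC box with GGGCGG, the E-box with CACGTG, the cyclic AMP element with TGACGTCA, the AP-1 element with TGACTCA and the ETS element with CCGGAAG. No matches in these windows share a base. The HEXIM1 window is chr17:45148225-45148474 on the plus strand and the CCNT1 window chr12:48716708-48716957 on the minus strand, both printed 5′ to 3′ in the direction of the gene.
HEXIM1: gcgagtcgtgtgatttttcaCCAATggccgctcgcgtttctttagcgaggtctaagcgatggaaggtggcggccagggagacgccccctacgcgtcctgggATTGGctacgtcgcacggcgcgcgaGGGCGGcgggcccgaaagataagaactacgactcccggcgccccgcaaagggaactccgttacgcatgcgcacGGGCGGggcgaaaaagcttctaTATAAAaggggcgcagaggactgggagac
CCNT1: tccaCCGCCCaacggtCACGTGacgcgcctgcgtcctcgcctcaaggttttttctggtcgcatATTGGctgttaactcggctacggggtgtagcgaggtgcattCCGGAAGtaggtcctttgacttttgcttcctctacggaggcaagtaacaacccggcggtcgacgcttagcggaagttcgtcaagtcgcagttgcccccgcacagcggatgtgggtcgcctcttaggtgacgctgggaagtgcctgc

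The HEXIM1 window held a TATA box whose first base lies 29 bases before the start, besides 2 NF-Y motifs and 2 GC boxes, and was 62.4% G and C. Of the 9 genes, HEXIM1 was the one with a TATA box, which 10.7% of 35116 RefSeq promoter windows of the same length hold. The CCNT1 window, 59.2% G and C, held 1 E-box, 1 NF-Y motif, 1 ETS element and 1 GC box. The E-box, found in 6.34% of all windows, occurred in no other of the 9. The NF-Y motif is in 32.0% of windows, the GC box in 42.6% and the ETS element in 8.52%. NELFB held 7 GC boxes, the most of the 9. LARP7 held the one cyclic AMP element (1.65% of windows), and no window of the 9 held the AP-1 element (4.20%). A match is a description of letters and not evidence of binding.

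After 30 min of merbarone none of the 9 genes passed the test. In RNA of whole cultures, fewer cells with a transcript and less of it per cell cannot be told apart. HEXIM1, the inhibitor of P-TEFb, was at 20.9, 29.7 and 26.1 RPKM in the DMSO libraries and at 21.0, 24.8 and 25.9 RPKM in the merbarone libraries. The merbarone values lay inside the range of the controls. Its log2 fold change was −0.09 ± 0.14 (SE) with a 95% interval of −0.43 to 0.26, and limma's adjusted p was 1.00.

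The components of P-TEFb itself also overlapped between the 30 min groups. CDK9 was at 9.94, 11.96 and 10.8 RPKM with DMSO and at 9.51, 11.7 and 11.1 with merbarone. CCNT1, cyclin T1, was at 2.03, 1.94 and 1.82 with DMSO and at 2.25, 2.19 and 1.94 with merbarone, so that the lowest merbarone library lay among the controls. Its log2 fold change of 0.09 ± 0.06 (SE; 95% interval −0.04 to 0.23; limma adjusted p = 1.00) was the highest of the 7 genes tested. CCNT1 was higher with merbarone in 3 of 3 same-numbered pairs, by 0.10, 0.11 and 0.06 on the log2(RPKM + 1) scale, and with the replicate number as a block limma's adjusted p was again 1.00 at an unadjusted p of 0.0224.

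Limma tested 7 of the 9 genes, those that averaged 1 RPKM or more in the comparison. CCNT2 and NELFA, both spread over long introns, fell below this minimum in every comparison. At 30 min, limma called 0 of the 7 at an adjusted p under 0.05, and 0 had an unadjusted p under 0.05 (0.369% of all genes). The percentage called among all 6500 genes tested was 0.0154 (1 gene), or 0.123 (8 genes) with the replicate block, under which 0 of the 7 were called as well. Limma's voom on the reads recovered from the RPKM values called 0 of the 9, against 0.00714% of all genes. In 0 of the 7 genes did all merbarone libraries lie beyond all DMSO libraries, against 2.28% of all genes tested. The 7 log2 fold changes ran from −0.09 (HEXIM1) to 0.09 (CCNT1) with a median of −0.02, beside a median of −0.0070 for all genes.

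The remaining genes gave intervals that included 0 at 30 min. LARP7, the 7SK-binding protein, had a log2 fold change of −0.0097 (95% interval −0.13 to 0.11), NELFB −0.06 (−0.27 to 0.16), NELFE −0.04 (−0.18 to 0.10) and SUPT5H −0.02 (−0.15 to 0.11). NELFB and SUPT5H were lower in 3 of 3 same-numbered pairs, and CCNT2 was higher in 3 of 3. The share of all genes alike in 3 of 3 pairs was not counted, so these counts, and that of CCNT1, have no background. Without the minimum level, CCNT2 had a log2 fold change of 0.04 (−0.10 to 0.17) and NELFA of −0.04 (−0.14 to 0.06). On the log2(RPKM + 1) scale the change of genes as low as these 2 is understated: by voom on reads the values were 0.08 and −0.14. Tested genes of low level are affected too. By voom CCNT1 had 0.14, and the interval of LARP7 ran from −0.20 to 0.16.

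**Figure D2:**
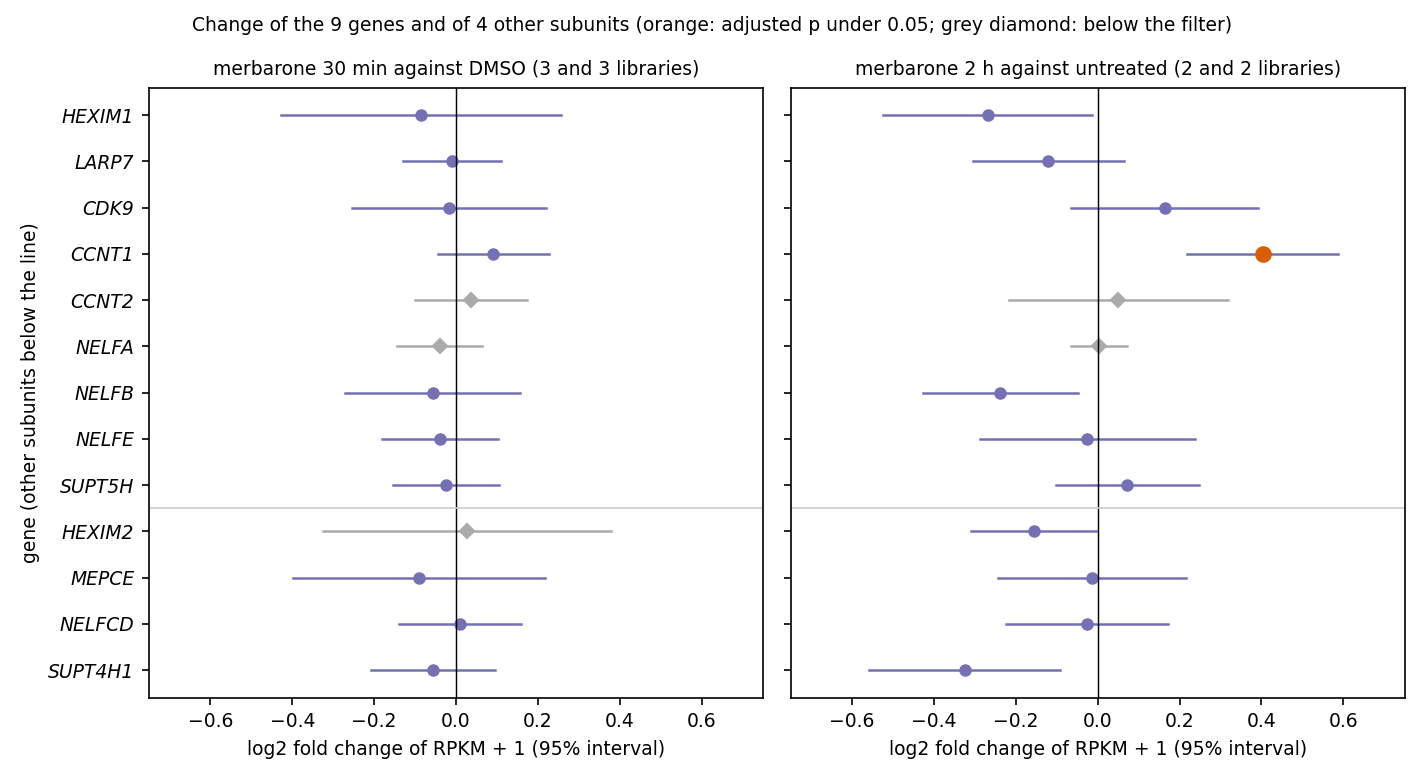
Log2 fold change of RPKM + 1 (horizontal axes) with its 95% interval for the 9 genes and 4 further subunits of their complexes (vertical axis), at 30 min on the left and at 2 h on the right; grey diamonds are genes below the minimum level, shown without it. All intervals at 30 min include 0, and at 2 h CCNT1 (0.40) is the gene past the threshold.

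After 2 h, cyclin T1 RNA rose while the other 6 genes tested did not pass the threshold. CCNT1 was at 1.91 and 1.62 RPKM in the untreated libraries and at 2.73 and 2.58 in the merbarone libraries. Both treated libraries lay above both controls, and the ratio of the group means was 1.50. The log2 fold change was 0.40 ± 0.08 (SE; 95% interval 0.22 to 0.59) and limma's adjusted p was 0.0152. CCNT1 lies on chromosome 12 (GRCh37, 49082241 to 49110781, minus strand) and overlaps no other annotated gene. The call was lost without the first merbarone library (0.37, adjusted p = 0.0941) and when all 16810 genes with reads were tested (adjusted p = 0.121), and voom on reads gave 0.59 (adjusted p = 0.00279).

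That 1 of 7 genes, or 14.3%, stands beside 13.1% of all 6620 genes tested in the 2 h comparison, so the share of the group called was near the background. Higher calls made up 5.98% of the genes tested and lower calls 7.1%. An unadjusted p under 0.05 was reached by 3 of the 7 (HEXIM1, CCNT1 and NELFB), beside 31.3% of all genes, and voom called 1 of the 9, beside 14% of all genes. Of all genes called, 396 were higher and 470 lower, a share of 45.7% higher that became 53.8% with quantile normalization and 56.5% with the trend on GC content removed. The median log2 fold change of the 7 genes was −0.03, against −0.05 for all genes tested. The merbarone libraries lay entirely above the untreated ones for 3 of the 7 genes (CDK9, CCNT1, SUPT5H) and entirely below for 3 (HEXIM1, NELFB, LARP7). Of all genes tested, 61.5% did not overlap: 22.5% of genes lay entirely above and 39% entirely below. The neural retina genes given above moved in the same libraries, and their part in these values was not tested.

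CDK9, the kinase that cyclin T1 activates, was at 10.4 and 11.3 RPKM in untreated cells and at 11.8 and 12.8 after 2 h of merbarone. The groups did not overlap. Its log2 fold change was 0.16 ± 0.10 (95% interval −0.06 to 0.39; limma adjusted p = 0.298), and it ran from 0.10 without the first untreated library to 0.22 without the second. With the trend on GC content removed it was 0.24 and passed the threshold (limma adjusted p = 0.0293), as did 27.1% of all genes in that fit.

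CCNT2, which encodes cyclin T2, the alternative partner of CDK9, was at 0.929 and 0.712 RPKM in untreated cells and at 0.977 and 0.791 after merbarone. These groups overlapped, and the second library was the lower one in both. Without the minimum level its log2 fold change was 0.05 (95% interval −0.22 to 0.32; limma adjusted p = 0.801).

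HEXIM1 went the other way from CCNT1. It was at 22.2 and 24.7 RPKM in the untreated libraries and at 20.5 and 18.1 RPKM in the merbarone libraries. Both treated libraries were below both controls. They were also below the 6 libraries of the 30 min experiment, narrowly (20.5 against 20.9 RPKM), though the experiments differed in control and depth. The log2 fold change was −0.27 ± 0.11 (SE), with a 95% interval of −0.52 to −0.01, but after adjustment over all genes limma's p was 0.141. HEXIM1 was thus not called higher at either time, with upper bounds of the interval at 0.26 after 30 min and at −0.01 after 2 h. With 1 library left out, the HEXIM1 value at 2 h ran from −0.35 (without the first merbarone library) to −0.18 (without the second).

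HEXIM1 is a single-exon gene on chromosome 17 (GRCh37, 43225842 to 43229466, plus strand). An annotated antisense RNA, HEXIM2-AS1, overlaps it on the opposite strand. The length implied by the RPKM steps was 4787 bp against a span of 3625 bp, so the region counted for it was not exactly the annotated gene. LARP7 was at 2.21 and 1.90 RPKM in untreated cells and at 1.72 and 1.90 after 2 h (−0.12, 95% interval −0.30 to 0.06, limma adjusted p = 0.341). The nearest libraries of its 2 groups were practically equal. The LARP7 value was −0.05 without the first untreated library and −0.19 without the second. Several small RNA genes of the miR-302 cluster lie within LARP7 on the opposite strand.

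The other proteins of the 7SK particle gave no call. HEXIM2, the paralog of HEXIM1, was at 1.16 and 1.26 RPKM in untreated cells and at 0.914 and 1.05 after 2 h. It lay below the controls in both treated libraries, as HEXIM1 did, at a log2 fold change of −0.16 ± 0.07 (limma adjusted p = 0.149). This value ran from −0.21 to −0.11 with 1 library left out. HEXIM2-AS1 overlaps HEXIM2 too. MEPCE, which caps 7SK RNA, was at 14.8 and 16.2 RPKM untreated and at 15.1 and 15.6 after merbarone (−0.01, 95% interval −0.24 to 0.21). The groups overlapped. MEPCE overlaps ZCWPW1 on the opposite strand and an annotated protein-coding gene on the same strand. The sources used here do not say if counting used the strand, so the value of MEPCE is uncertain. The 7SK RNA itself, which is not polyadenylated, was not examined in these libraries of polyadenylated RNA.

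Among the NELF subunits, which hold the paused polymerase, NELFB had the most negative value. It was at 3.95 and 4.26 RPKM in untreated cells and at 3.24 and 3.42 after 2 h of merbarone. Both treated libraries were below both controls. The log2 fold change was −0.24 ± 0.08 (SE, 95% interval −0.43 to −0.05, limma adjusted p = 0.0945). It ran from −0.28 without the first untreated library to −0.19 without the second.

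NELFE, the RNA-binding subunit of NELF, was at 7.38 and 8.91 RPKM untreated and at 7.36 and 8.60 after 2 h. The replicates differed from each other more than the groups did (−0.03, 95% interval −0.29 to 0.24, limma adjusted p = 0.902). NELFA, the subunit that lies on a 59187 bp gene on chromosome 4, was at 0.349 and 0.379 RPKM untreated and at 0.365 and 0.367 with merbarone. Its treated values lay between the controls (0.0025 without the minimum level, 95% interval −0.07 to 0.07). NELFCD, the remaining subunit, was at 5.34 and 5.01 RPKM untreated and at 4.90 and 5.22 treated, with overlapping groups (−0.03, limma adjusted p = 0.862). NELFCD overlaps CTSZ on the opposite strand.

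DSIF consists of SUPT5H and SUPT4H1, and their values differed in direction. SUPT5H, the large subunit and itself a target of P-TEFb, was at 2.54 and 2.36 RPKM untreated and at 2.67 and 2.57 after 2 h. These groups did not overlap but lay within a narrow band (0.07 ± 0.08, 95% interval −0.10 to 0.25, limma adjusted p = 0.555). The SUPT5H value was 0.11 without the first untreated library and 0.03 without the second. SUPT4H1, the small subunit, was at 10.1 and 11.8 RPKM untreated and at 8.60 and 8.42 after merbarone, both treated libraries below both controls. The antisense RNA gene TSPOAP1-AS1 overlaps it, and so does an annotated protein-coding gene on the same strand. The log2 fold change of SUPT4H1 was −0.32 ± 0.10 (95% interval −0.56 to −0.09, limma adjusted p = 0.0700). The SUPT4H1 call depended on the setting. It passed by voom on reads (adjusted p = 0.0467), beside 14% of all genes in that fit. It also passed with the trend on GC content removed (limma adjusted p = 0.0316), beside 27.1% of all genes in that fit. With 1 library left out the SUPT4H1 value ran from −0.43 to −0.22.

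The effect at 2 h minus the effect at 30 min was tested over all 10 libraries, a contrast in which time, kind of control and experiment cannot be told apart. None of the 7 genes passed (0 at an adjusted p under 0.05, 1 at an unadjusted p under 0.05), against 1.63% and 16.1% of 6558 genes tested. Voom called 0 of the 9, against 0.475% of all genes. CCNT1 had the largest difference of the 7, 0.31 ± 0.10 (95% interval 0.09 to 0.53; limma adjusted p = 0.164). HEXIM1 had −0.18 ± 0.20 (−0.64 to 0.28; adjusted p = 0.720), CDK9 0.18 ± 0.15 (−0.15 to 0.51; adjusted p = 0.608) and NELFB −0.18 ± 0.13 (−0.47 to 0.11; adjusted p = 0.546). LARP7 had −0.11, SUPT5H 0.10 and NELFE 0.01. With 1 library left out, the difference ran for HEXIM1 from −0.29 (without the second DMSO library) to −0.05 (without the first DMSO library). For CDK9 it ran from 0.10 (without the first 30 min merbarone library) to 0.24 (without the second untreated library). The ranges were −0.25 to −0.12 for NELFB, −0.18 to −0.04 for LARP7 and 0.06 to 0.13 for SUPT5H. Levels of epithelial keratins also differed between the experiments, with sums of 16.1 to 24.5 RPKM in the 30 min and 62.0 to 76.0 in the 2 h libraries, and their part in this contrast was not tested. The rise of CCNT1 at 2 h was therefore not shown to differ from its value at 30 min.

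Ratios of reads of a pair of genes within a library do not depend on the library's scaling. They were chosen after the values had been seen and carry no test. For each read of HEXIM1 there were 0.511 and 0.390 reads of CCNT1 in untreated cells and 0.790 and 0.846 after 2 h of merbarone. The ratio was 0.575, 0.389 and 0.416 with DMSO and 0.636, 0.524 and 0.445 after 30 min of merbarone. Both 2 h merbarone libraries were above the other 8, and the 30 min groups overlapped. Reads of CDK9 for each read of HEXIM1 were 0.497 and 0.490 in untreated cells and 0.612 and 0.753 after 2 h.

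The ratio of the 2 cyclins was also higher in both 2 h merbarone libraries, which takes in the CCNT1 values given above and is not separate from them. For none of these ratios was the share of other gene pairs that separate in this way counted. Reads of CCNT1 for each read of CCNT2 were 1.42 and 1.58 in untreated cells and 1.93 and 2.26 after 2 h of merbarone. With DMSO they were 1.50, 1.34 and 1.46, and after 30 min of merbarone 1.63, 1.36 and 1.50. The highest ratio outside the 2 h merbarone group was therefore 1.63. The counts of RNA say nothing of how much of either cyclin is bound to CDK9.

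**Figure D3:**
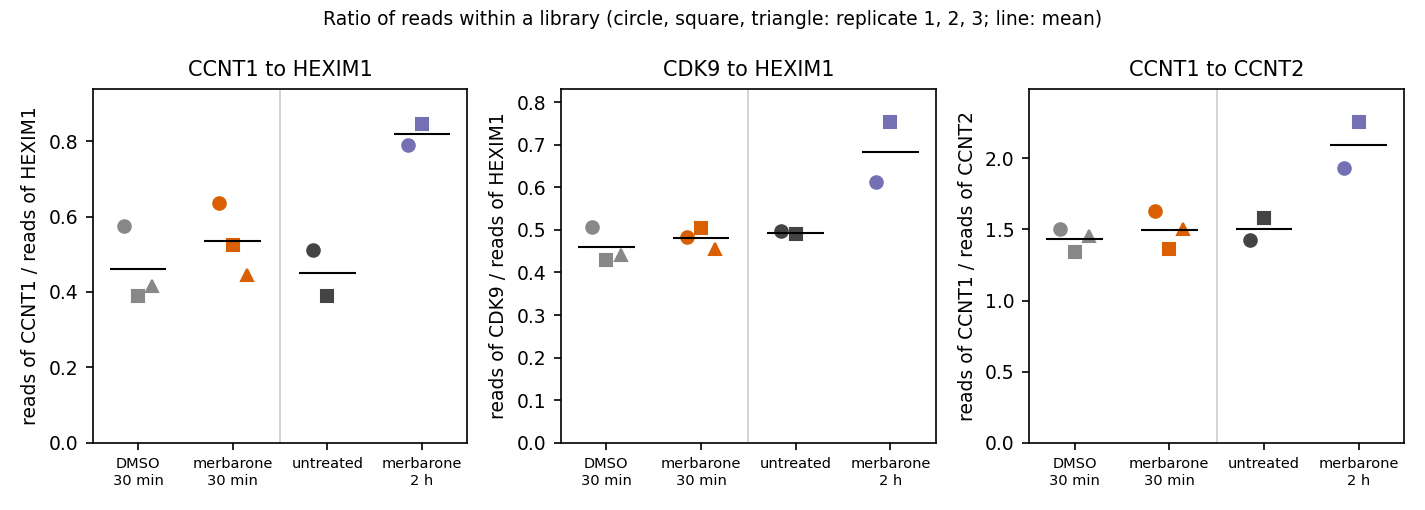
Reads of CCNT1 or CDK9 divided by reads of HEXIM1 or CCNT2 in the same library (vertical axes, from 0), by group on the horizontal axis; points are libraries and lines group means. In all 3 panels both 2 h merbarone libraries lie above the other 8, with CCNT1 to HEXIM1 at 0.790 and 0.846.

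Across the 10 libraries HEXIM1 and CCNT1 had a negative correlation, which takes in the 2 h changes given above and is not separate from them. After subtracting the control mean of its own experiment, each gene's log2(RPKM + 1) was correlated with that of HEXIM1 over the 10 libraries. These points share libraries, depth and base composition, and the values are descriptions. Among 6557 genes the closest to HEXIM1 were THOC6 (Pearson r = 0.966), UBTF (0.959), NFATC4 (0.957), ERF (0.951) and NR2F1 (0.949). UBTF encodes a transcription factor of RNA polymerase I, and ERF a repressor of the ETS family.

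Of the other members, NELFB came closest to HEXIM1, with r = 0.898 and rank 80. CCNT1 had r = −0.689 and rank 6037. Between other members, picked as the highest and the lowest of all pairs, CDK9 and SUPT5H had r = 0.746 and CCNT2 and NELFE r = −0.917. Within the 6 libraries of the 30 min experiment alone, the values for these 4 pairs, in the same order, were 0.953, −0.597, 0.964 and −0.851. Other pairs were as high there, such as NELFB and SUPT5H at 0.970. Same-numbered libraries of that experiment deviated together across genes (correlations 0.925, 0.646 and 0.605), and the part of this in the values was not tested. Fold changes of all genes also ran with GC content (Spearman −0.421 at 30 min and −0.173 at 2 h), and the exonic GC content of the pair HEXIM1 and CCNT1 was 48.3% and 40.6%; the part of base composition in these correlations was not tested.

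Other genes of pausing and elongation were read from a list of 70, of which 41 were tested at 30 min and 44 at 2 h. At 30 min limma called 0 of the 41, against 0.0154% of all genes, and 0 had an unadjusted p under 0.05, against 0.369%. The median log2 fold change was −0.0086, beside −0.0070 for all genes. At 2 h 3 rose and 1 fell, or 9.09%, beside 13.1% of all genes tested. The median of the 44 was −0.02. All merbarone libraries were above the untreated ones in 9 of the 44, against 22.5% of all genes tested, and below them in 17, against 39% of all genes.

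The 3 genes of this list that rose at 2 h were POLR2A, EAF1 and AFF4. POLR2A, the catalytic subunit of RNA polymerase II, was at 6.26 and 5.21 RPKM untreated and at 9.45 and 9.51 after merbarone. The treated libraries lay far above the controls (0.64 ± 0.10, limma adjusted p = 0.00542). POLR2A was also the one gene of the list whose effect differed between the experiments (0.67 ± 0.12, limma adjusted p = 0.0326). That difference passed in 1 of the 10 fits that left out a library, and its adjusted p there ran from 0.0325 to 0.155 (highest without the second 2 h merbarone library). In the 30 min experiment POLR2A was at 8.89, 8.65 and 9.40 RPKM with DMSO and at 7.98, 9.21 and 9.17 with merbarone. The untreated libraries lay below all of these, though the experiments differed in control and depth.

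Of the other 10 tested subunits of RNA polymerase II, 8 had negative values at 2 h, down to −0.30 for POLR2J, and none passed the threshold. EAF1 and AFF4 belong to the super elongation complex, which carries P-TEFb to genes. EAF1 was at 2.34 and 2.13 RPKM untreated and at 3.58 and 3.35 treated (0.47 ± 0.08, limma adjusted p = 0.00812). AFF4, the scaffold of that complex, was at 1.66 and 1.33 untreated and at 2.43 and 2.11 treated (0.39 ± 0.09, limma adjusted p = 0.0245). Neither group pair overlapped. In the 30 min experiment AFF4 was at 2.67, 2.18 and 2.75 RPKM with DMSO and at 2.73, 2.46 and 2.62 with merbarone. The untreated libraries of AFF4 lay below all of these, while those of EAF1 lay above its 30 min values, at most 2.04 RPKM. EAF1 overlaps COLQ and METTL6 on the opposite strand, and the length implied by its RPKM steps was 15265 bp against a span of 23038 bp, so the region counted was not exactly the annotated gene. ELL2 of the same complex had −0.17 and ELL3 0.07, and neither passed.

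PPP1R10, a regulatory subunit of a phosphatase that acts on the polymerase and DSIF, was the gene of the list that fell. It was at 3.80 and 3.95 RPKM untreated and at 2.31 and 2.63 after 2 h (−0.49 ± 0.08, limma adjusted p = 0.00757), with both treated libraries below both controls. PPP1R10 overlaps MRPS18B on the opposite strand. Without the first 2 h merbarone library the limma adjusted p was 0.0853 for PPP1R10, 0.0583 for EAF1 and 0.159 for AFF4, and 0.00518 for POLR2A. When all genes with reads were tested, none of the 4 passed, at adjusted p from 0.0996 (EAF1) to 0.166 (AFF4).

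BRD2, a bromodomain protein, had 0.33 ± 0.10 at 2 h and missed the threshold (limma adjusted p = 0.0603). JMJD6 had −0.22 (adjusted p = 0.0863). The 6 tested Integrator subunits ran from −0.15 (INTS3) to 0.17 (INTS5), and the 5 of the PAF1 complex from −0.06 to 0.14. These groups gave no call.

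**Figure D4:**
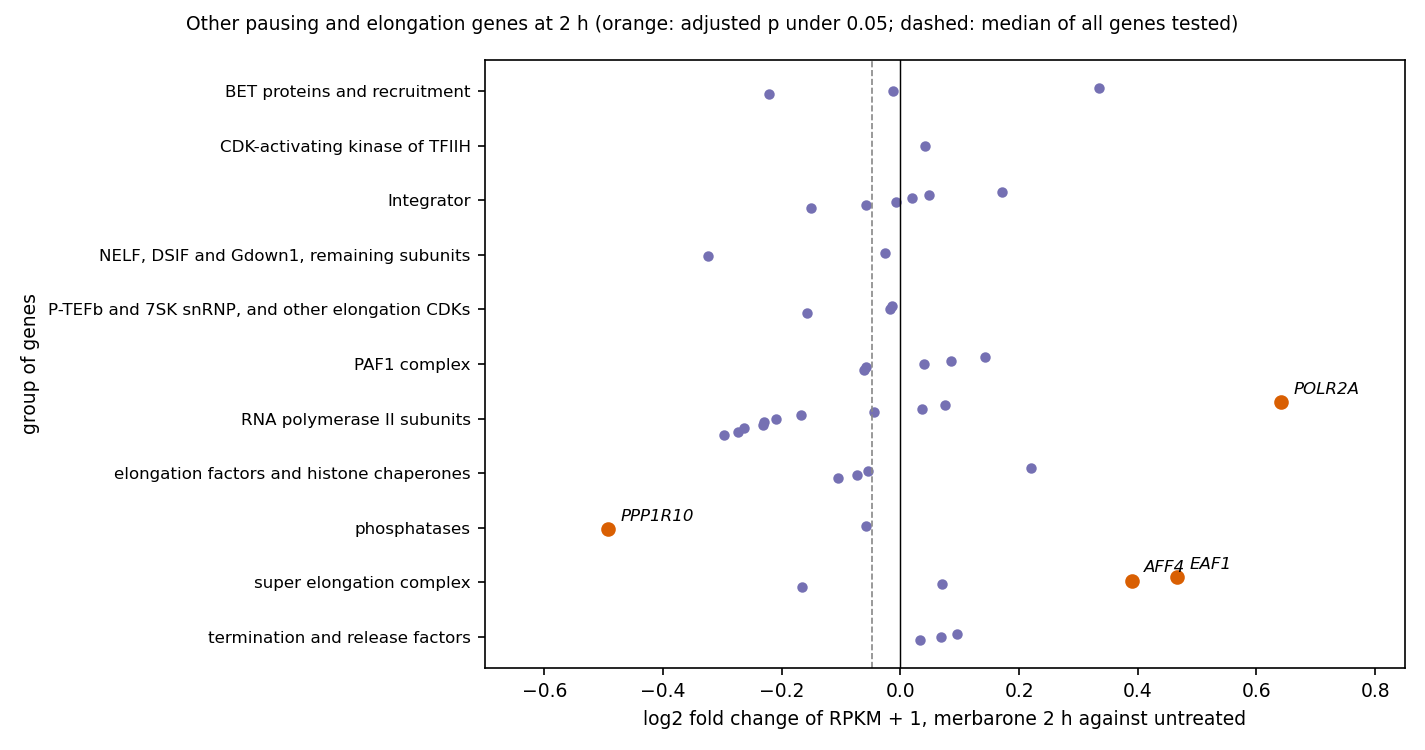
Log2 fold change at 2 h (horizontal axis) of the 44 tested genes of the list, by group on the vertical axis; each point is a gene and the dashed line is the median of all genes tested. POLR2A (0.64), EAF1 (0.47), AFF4 (0.39) and PPP1R10 (−0.49) are the genes past the threshold, and most other points lie within 0.3 of 0.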

How the data were processed

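RNA of 10 libraries was measured by sequencing with the TruSeq Stranded mRNA kit, per the labels' protocols. For each library the authors deposited RPKM values by Ensembl gene identifier, as the file headers name them. Bowtie 1.2.0, DESeq2, edgeR and deepTools 2.4.1 and the build GRCh37 are listed in the submitters' processing notes without roles; the counter is not given in the sources used here.

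Reads were recovered from the RPKM steps: values of 17680 genes, 100% of those above 0, came out whole within 0.01 read. The gene length this implies matched the annotated span, introns included, to 1% in 76.1% of 14140 genes and the exon length in 1.22%. Members and lists were chosen with earlier results of these data known.

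Tests used limma 3.58.1 (R 4.3.3) on log2(RPKM + 1), two-sided, lmFit and eBayes(trend=TRUE), for genes averaging 1 RPKM or more, with Benjamini-Hochberg adjustment over all genes tested and a threshold of 0.05. Intervals are at 95%. Each experiment was fitted alone; the difference used all 10 libraries. Adding 1 understates changes of low genes. The count test on reads was limma's voom, for genes averaging 10 reads or more; it called 1 of 14012 genes at 30 min and 1886 of 13440 at 2 h. In the 30 min experiment same-numbered libraries, numbered by the labels, deviated together (correlations 0.925, 0.646 and 0.605 across genes), and a block on that number was tried. Other alternatives were a pseudocount of 0.1, other minimum levels, median scaling, quantile normalization, no trend, 1 fit for all libraries, removal of the GC trend and leaving out each library. Fits were tested on simulated reads drawn independently for each library. The simulation held no shared deviation of same-numbered libraries, so it does not show how the fits behave under it.

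Named genes were the 9 members, the other subunits of their complexes and, of the list of 70, up to 12 called genes without overlap per comparison. BRD2, JMJD6, INTS3, INTS5, ELL2, ELL3 and POLR2J were chosen after their values were seen. Gene positions are GRCh37 (GENCODE); WDR61 was matched as SKIC8. Endothelial markers summed to at most 0.0050 RPKM, leukocyte markers to at most 0.266, and mesenchymal genes to between 844 and 1373.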

Additional observations from a re-analysis of the deposited data

Results flagged for a closer look

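The effect of merbarone on POLR2A differed between the experiments by 0.67 on the log2(RPKM + 1) scale (limma adjusted p = 0.0326), the 2 h effect being the higher; it passed in 11 of 21 alternatives. Time, kind of control and experiment cannot be told apart in this difference.

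NELFA drew attention because its treated libraries lay on opposite sides of the control mean in the experiments: at −0.0713, −0.0307 and −0.0186 in the 3 libraries at 30 min and at 0.0017 and 0.0033 in the 2 libraries at 2 h. The difference of the effects was 0.0427, NELFA lay below the minimum level for the test, and without that minimum limma's adjusted p was 0.813. No group had more than 3 libraries, so single libraries that stand apart were not looked for by a rule.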

How the results depend on the processing

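The number of genes called at 30 min was 1. It was 0 without the minimum level, 2 with a mean of at least 5 RPKM, with median scaling, with quantile normalization and with all libraries in 1 fit, 8 with the replicate block (also with the GC trend removed), 13 with voom and the block, and 0 to 2 when 1 library was left out. At 2 h it was 866: 53 without the minimum level, 397 at 5 RPKM, 1886 with voom, 1759 with the GC trend removed and 328 to 2464 without 1 library.

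At 2 h the number of the 9 genes called was 1: 0 without the minimum level and at 5 RPKM (which leaves out CCNT1), 2 with the GC trend removed (CDK9 and CCNT1) and 0 to 3 without 1 library. Of the list of 70, 4 were called: 0 without the minimum level, 1 at 5 RPKM, 8 with voom, 10 with the GC trend removed and 1 to 15 without 1 library. The difference between experiments gave 107 genes: 361, 36, 66 and 204 under the same 4 settings, and 38 to 86 without 1 library.

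As background to the counts above, 13.1% of all genes were called at 2 h in the main fit, 0.315% without the minimum level and 17.8% at 5 RPKM. The shares were 14% with voom and 27.1% with the GC trend removed. Of the list of 70, 44 genes were tested in the main fit. Without 1 library, the 2 h fit that called the most of the 9 and of the list also called the most genes. At 2 h, same-numbered libraries share only a number (correlation 0.30, 2 pairs, 1 residual degree of freedom). With the replicate block, 2129 genes, 3 of the 9 (HEXIM1, CCNT1 and NELFB, beside 32.2% of all genes) and 14 of the 70 were called at 2 h, and 1255 for the difference, CCNT1 among them. With voom and the block the values were 3487 (25.9% of all genes), 3, 17 and 2100. With the GC trend removed and the block they were 1982 (30.5% of all genes), 2, 11 and 1725. At 30 min the block changed no call of a member.

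Signs that reversed belonged to values near 0. At 30 min CDK9 was 0.0103 with the GC trend removed, with and without the block. Without 1 library, the 30 min values ran from −0.22 to 0.0257 for HEXIM1, −0.0761 to 0.0632 for CDK9, −0.0365 to 0.0216 for LARP7, −0.12 to 0.0102 for NELFB and −0.0523 to 0.0116 for SUPT5H. NELFE at 2 h was 0.0610 with quantile normalization, 0.0554 with the GC trend removed (also with the block) and −0.15 to 0.0962 without 1 library, and its difference between experiments ran from −0.11 to 0.14. A group left with 1 library is assumed to vary like the other.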
